A study of Homo sapiens with 8 samples.

Results

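The death receptor pathway was followed through 10 genes in PANC-1 cells, an established human line derived from a pancreatic ductal carcinoma, treated with eupalinolide B (EB). The genes were picked by symbol, with earlier results of these data known, and comprise the receptors TNFRSF10A, TNFRSF10B, TNFRSF1A and FAS, the decoy receptor TNFRSF10D, the adaptors FADD and TRADD, the initiator caspase CASP8, its regulator CFLAR and the kinase RIPK1. All 10 were found among the 20263 genes of the deposited table, and each had a value in every library. EB is a compound extracted from the plant Eupatorium lindleyanum. Cells received 10 μM EB or the vehicle dimethyl sulfoxide (DMSO) for 24 h, and mRNA libraries were made from 4 samples per group. The study asked how EB acts on pancreatic cancer cells, and the comparison here asks whether the transcripts of this pathway differed between the groups. Both groups are the same line, so the values describe 1 cell line at 1 dose and 1 time.

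Death receptors are membrane proteins of the tumour necrosis factor (TNF) receptor family that carry a death domain in their cytoplasmic tail. When a ligand such as TRAIL or FAS ligand clusters them, the adaptor FADD binds the tail and recruits procaspase 8, whose activation starts the extrinsic route to apoptosis; CFLAR (c-FLIP) competes for FADD and modulates this step. TNFRSF1A, the main TNF receptor, first recruits TRADD and RIPK1 into a complex that activates NF-κB, and a later complex can lead to cell death by caspase 8 or, when caspase 8 is not active, by necroptosis. Much of this control acts on proteins, by assembly, cleavage and ubiquitination, which RNA levels do not show.

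Values are TPM, that is abundances corrected for gene length and scaled to the same total in every library, so that levels of different genes can be set side by side. Read counts are not part of the table, and the depth behind a value is unknown. Fold changes are differences of log2(TPM + 1), which understates the change of low genes. They were tested by limma across the 11725 genes with at least 1 TPM in at least 4 libraries, and called at a Benjamini-Hochberg adjusted p under 0.05. Single genes were also tested by an exact two-sided permutation test over the 70 assignments of the libraries, for which the smallest possible p is 0.0286. The 13 mitochondrially encoded genes took 17% to 39% of the TPM with DMSO and 11.6% to 20.3% with EB, and replicate 4 of DMSO stood apart at the upper end. Of the 7 ductal markers, KRT8, KRT18, KRT19, SOX9 and MUC1 were above 1 TPM in every library, whereas KRT7 and EPCAM stayed at or below 0.297 and 0.387 TPM. The ductal sum ranged from 1145 to 1613 TPM with DMSO and from 3267 to 3654 TPM with EB. The 3 keratins rose (log2 fold changes 1.20 to 1.80) while SOX9 and MUC1 fell, from 148.5 to 57.1 TPM (−1.38) and from 18.5 to 3.85 TPM (−2.04), each without overlap between the groups. The 4 acinar markers, 3 of 4 endocrine markers and 3 of 4 immune markers, PTPRC and CD3E included, were listed at 0 throughout. Endothelial markers summed to at most 0.305 TPM, and of the 4 fibroblast markers DCN and LUM were at 0 while the sum, nearly all COL1A2, was 64.0 to 91.8 TPM with DMSO and 38.5 to 50.4 TPM with EB. In bulk RNA, fewer cells that express a gene and less of its RNA per cell cannot be told apart.

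FADD rose with EB, CASP8 and RIPK1 fell, and the other 7 members did not pass the test. Of the 10 members 1 was therefore called higher and 2 lower, against 15.2% of all tested genes higher and 25.1% lower, or 40.3% called in either direction. A member share of 3 in 10 does not stand above that background. No member met both thresholds of the study (a limma p under 0.05 before adjustment and a fold change beyond 1.5 on the log2 scale in either direction), which 2.08% of tested genes passed. The groups did not overlap in 1 member, FADD, against 36.8% of tested genes. The median log2 fold change of the members was −0.09, that of all tested genes −0.11. Each member was above 1 TPM in all 8 libraries, so none entered the test through one group alone.

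With DMSO, TNFRSF1A was by far the most abundant member, at 326.8 TPM, and its libraries lay above those of every other member. CASP8 (43.8 TPM), TNFRSF10B (43.4 TPM) and FADD (41.9 TPM) followed with overlapping ranges. A lower tier ran from TRADD at 22.3 TPM through CFLAR, RIPK1, TNFRSF10D and TNFRSF10A to FAS at 5.74 TPM, and neighbours in that order overlapped as well. With EB the order below TNFRSF1A (314.6 TPM) differed. FADD now stood alone at 72.8 TPM, with every library above the next gene, TNFRSF10B (39.1 TPM), which overlapped with TRADD (30.7 TPM), as TRADD did with CASP8 (27.9 TPM). RIPK1 (11.9 TPM) and FAS (4.47 TPM) were each set apart at the bottom. The members summed to 444.9 to 606.1 TPM with DMSO and to 518 to 596.1 TPM with EB. In replicate 4 of each group, the library with the highest mitochondrial share of its group, 8 of 10 members had their lowest value of that group. The part of the mitochondrial share in the fold changes was not tested beyond the rescaling without mitochondrial genes given below.

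**Figure D1:**
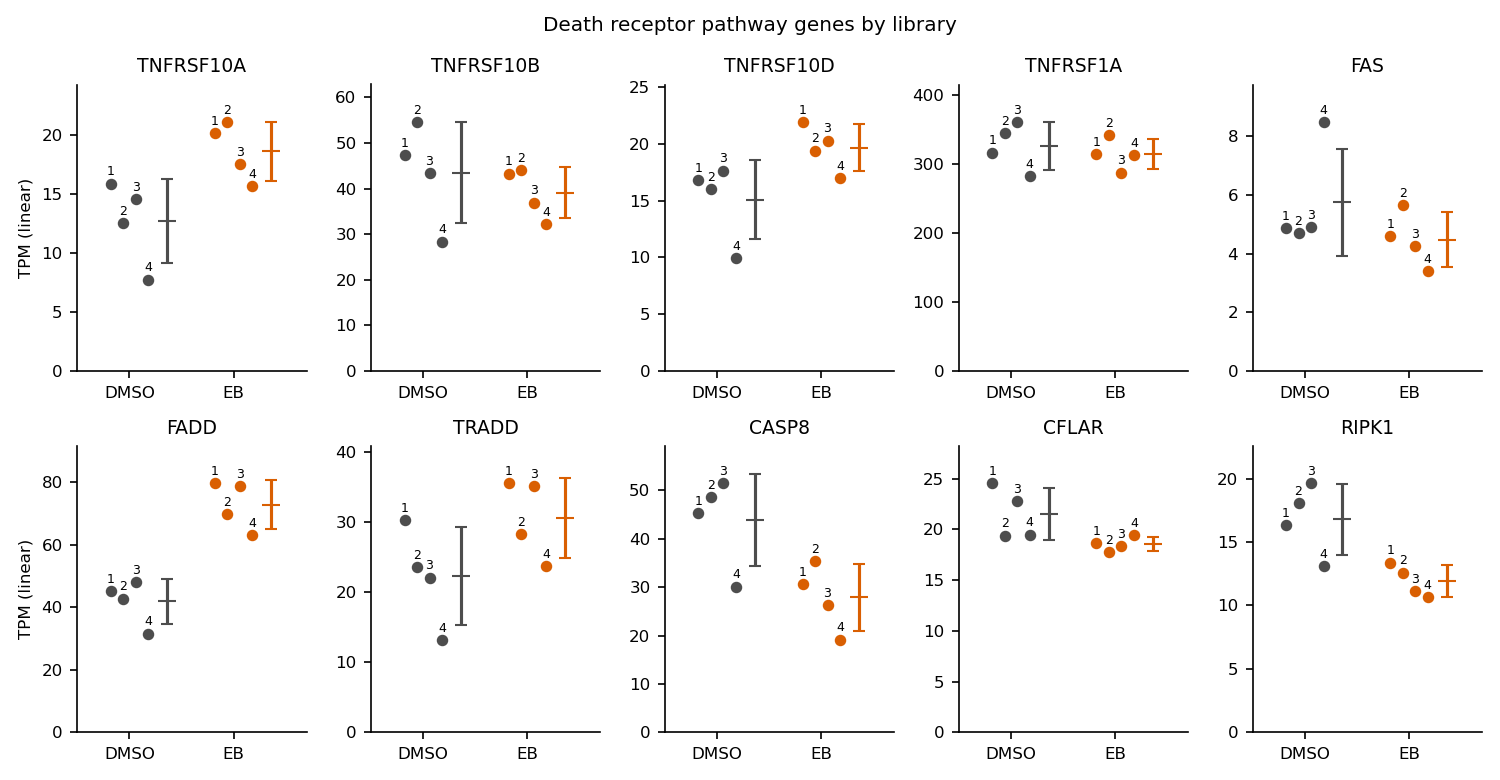
TPM on a linear axis from 0 for each of the 10 genes, with DMSO libraries in grey and EB libraries in orange, numbered by replicate; the bar beside each group is the mean with its SD over 4 libraries. Only FADD has all EB points above all DMSO points, and replicate 4 of DMSO is the lowest grey point in 8 panels and the highest in the FAS panel.

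The 2 signalling receptors for TRAIL, TNFRSF10A (DR4) and TNFRSF10B (DR5), and the decoy TNFRSF10D, whose truncated death domain cannot signal, are neighbours with TNFRSF10C in a cluster of 4 genes on chromosome 8 of hg38, from 23020133 to 23225102, a span of 205 kb. TNFRSF10A had 15.8, 12.5, 14.6 and 7.73 TPM in the DMSO libraries and 20.1, 21.1, 17.5 and 15.6 TPM in the EB libraries. The highest DMSO value lies just above the lowest EB value, so the groups overlap by that single pair. Its log2 fold change was 0.55 (standard error 0.21, 95% interval 0.09 to 1.02, limma adjusted p = 0.0557; exact permutation p = 0.0571). TNFRSF10A therefore missed the threshold narrowly, and it passed in 6 of 17 alternatives, with median-ratio scaling (0.68, limma adjusted p = 0.00187), quantile normalization (0.74), removal of the mitochondrial genes (0.39, limma adjusted p = 0.0444) and removal of the length and GC trend (0.59) among them, and also without DMSO replicate 1 (0.67, limma adjusted p = 0.04).

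TNFRSF10B had 47.3, 54.6, 43.4 and 28.3 TPM with DMSO and 43.3, 44.04, 36.9 and 32.2 TPM with EB. The EB values all fall within the range of the DMSO values. The log2 fold change was −0.12 (standard error 0.20, limma adjusted p = 0.658), with a 95% interval from −0.57 to 0.33 that leaves room for a change of either sign. Its sign turned with the scaling, to 0.01 with median-ratio scaling, to 0.12 with the length and GC trend removed and to less than 0.01 without DMSO replicate 2. TNFRSF10D had 16.8, 15.99, 17.6 and 9.95 TPM with DMSO and 22.0, 19.4, 20.3 and 17.0 TPM with EB. Of the EB libraries only replicate 4 lies within the DMSO range. The log2 fold change was 0.39 (95% interval −0.02 to 0.79, limma adjusted p = 0.114; exact permutation p = 0.0571), and TNFRSF10D was called with median-ratio scaling (0.51, limma adjusted p = 0.00354), quantile normalization (0.55) and the length and GC trend removed (0.57).

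Ratios of members within a library do not depend on the scaling between libraries. The ratio of TNFRSF10B to TNFRSF10A was 2.99, 4.37, 2.98 and 3.66 in the DMSO libraries and 2.15, 2.09, 2.11 and 2.06 in the EB libraries. All EB ratios lay below all DMSO ratios, and they were nearly constant. The difference was −0.72 on the log2 scale, that is 1.64-fold lower with EB (exact permutation p = 0.0286, Benjamini-Hochberg adjusted over 4 ratios 0.0571; lower in 4 of 4 EB libraries). For TNFRSF10B to TNFRSF10D the ratios were 2.81, 3.42, 2.46 and 2.85 with DMSO and 1.97, 2.27, 1.82 and 1.89 with EB. These groups did not overlap either, with a difference of −0.53 on the log2 scale (exact permutation p = 0.0286, adjusted 0.0571). Both ratios share TNFRSF10B and are not independent. With 4 ratios the adjusted value could fall below 0.05 only if at least 3 of them reached the smallest p. With the length and GC trend removed the differences were −0.46 and −0.45, and the adjusted p of the exact permutation test was 0.0381 for each. TNFRSF10A, TNFRSF10B, TNFRSF10C and TNFRSF10D are similar in sequence, and how reads shared between such genes were divided is not stated.

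TNFRSF1A had 317, 345, 362 and 283 TPM with DMSO and 315, 342, 288 and 314 TPM with EB. The 2 groups cover almost the same range. The log2 fold change was −0.05 (95% interval −0.33 to 0.23, limma adjusted p = 0.767). It was 0.08 with median-ratio scaling, and −0.28 with quantile normalization (limma adjusted p = 0.0434), the only alternative that called it. TNFRSF1A lies on chromosome 12 from 6328757 to 6342114.

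FAS, the receptor of FAS ligand, lies on chromosome 10 from 88953813 to 89029605 and had 4.87, 4.69, 4.91 and 8.49 TPM with DMSO and 4.59, 5.65, 4.24 and 3.40 TPM with EB. DMSO replicate 4 was far above the other DMSO libraries, and without it the groups overlapped closely. The log2 fold change was −0.28 (95% interval −0.72 to 0.16, limma adjusted p = 0.274), −0.11 without DMSO replicate 4 and 0.02 with quantile normalization. In the annotation FAS overlaps ACTA2 on the opposite strand and STAMBPL1 on its own strand. ACTA2 had a mean of 37.6 TPM with DMSO and 21.6 TPM with EB, several times the level of FAS, and STAMBPL1 had 3.48 and 5.33 TPM. Whether reads were assigned by strand is not stated, so reads of ACTA2 and FAS may not be separable and the FAS values are uncertain.

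FADD, the adaptor that links death receptors to caspase 8, was the only member called higher and, as deposited, had the largest fold change of the members. CASP8 had a larger one without the mitochondrial genes (−0.82 against 0.61) and without DMSO replicate 4 (−0.81 against 0.67), and RIPK1 a slightly larger one without the mitochondrial genes (−0.63). Its position is 70203296 to 70207390 on chromosome 11 of hg38, plus strand. FADD had 45.2, 42.7, 48.0 and 31.6 TPM with DMSO and 79.6, 69.8, 78.8 and 63.1 TPM with EB. Each EB library was above each DMSO library, and replicate 4 was the lowest in both groups. The mean went from 41.9 ± 7.19 (SD, n = 4) to 72.8 ± 7.88 TPM (SD, n = 4). The log2 fold change was 0.79 (standard error 0.16, 95% interval 0.44 to 1.14, limma adjusted p = 0.00387), and the exact permutation p was 0.0286, the lowest it can be. FADD was called in all 17 alternatives, with log2 fold changes from 0.61 without the mitochondrial genes to 0.92 with median-ratio scaling and a limma adjusted p of at most 0.0154.

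TRADD, the adaptor of TNFRSF1A, lies on chromosome 16 from 67154185 to 67159909 and had 30.3, 23.6, 22.1 and 13.2 TPM with DMSO and 35.6, 28.3, 35.2 and 23.7 TPM with EB. The means differ in the same direction as those of FADD, but the spread is wide and the groups overlap. Its log2 fold change was 0.48 (standard error 0.24, 95% interval −0.05 to 1.01, limma adjusted p = 0.131), and it was called with median-ratio scaling (0.61, limma adjusted p = 0.0146) and quantile normalization (0.57, limma adjusted p = 0.0199). The ratio of FADD to TRADD was 1.49, 1.81, 2.17 and 2.39 with DMSO and 2.24, 2.47, 2.24 and 2.66 with EB. These ratios overlapped (difference 0.31 on the log2 scale, exact permutation p = 0.114, adjusted 0.152).

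CASP8, the initiator caspase, fell with EB. Its position is 201233443 to 201361836 on chromosome 2, plus strand. It had 45.2, 48.6, 51.5 and 30.1 TPM with DMSO and 30.7, 35.3, 26.3 and 19.2 TPM with EB. DMSO replicate 4 lies among the EB libraries, while the other 3 DMSO libraries are above all of them. The mean went from 43.8 ± 9.52 (SD, n = 4) to 27.9 ± 6.85 TPM (SD, n = 4), and the log2 fold change was −0.64 (standard error 0.22, 95% interval −1.13 to −0.15, limma adjusted p = 0.0415; exact permutation p = 0.0857). Without DMSO replicate 4 the fall was larger (−0.81, limma adjusted p = 0.00798). The call was lost without DMSO replicate 1 (−0.61), DMSO replicate 2 (−0.58), DMSO replicate 3 (−0.55), EB replicate 1 (−0.69), EB replicate 3 (−0.62) or EB replicate 4 (−0.48), with limma adjusted p from 0.0586 to 0.109, and with no filter on low values (limma adjusted p = 0.0714).

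CFLAR neighbours CASP8 on chromosome 2, and the 2 genes together with CASP10, a relative of CASP8, span 246 kb from 201116154 to 201361836. CFLAR had 24.5, 19.4, 22.8 and 19.5 TPM with DMSO and 18.6, 17.8, 18.3 and 19.5 TPM with EB. The EB libraries were close to each other, and only EB replicate 4 lies within the range of the DMSO libraries. The log2 fold change was −0.20 (95% interval −0.47 to 0.07, limma adjusted p = 0.213; exact permutation p = 0.0571), −0.38 with the mitochondrial genes removed (limma adjusted p = 0.0157) and 0.37 with the length and GC trend removed (limma adjusted p = 0.0538). The canonical CFLAR transcript, at 14612 nucleotides, is by far the longest of the members. Length and GC were removed together, so their parts in the turn of its sign cannot be told apart. The ratio of CASP8 to CFLAR was 1.84, 2.50, 2.26 and 1.54 with DMSO and 1.65, 1.98, 1.44 and 0.987 with EB. The ratios overlapped and could not be distinguished (difference −0.45 on the log2 scale, exact permutation p = 0.171, adjusted 0.171). Over 12 alternatives the difference ran from −0.26 to −0.96, the latter with the length and GC trend removed. The adjusted p of the exact permutation test ran from 0.0571 to 0.19.

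The contrast between FADD and CASP8 was seen after the values were known and is given as a description only. The ratio of FADD to CASP8 was 1, 0.879, 0.932 and 1.05 in the DMSO libraries and 2.59, 1.98, 2.99 and 3.29 in the EB libraries. The 2 genes were thus at about the same level with DMSO, and FADD was 1.98 to 3.29 times as abundant as CASP8 with EB. The geometric mean of the ratio was 2.77-fold higher with EB than with DMSO.

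**Figure D2:**
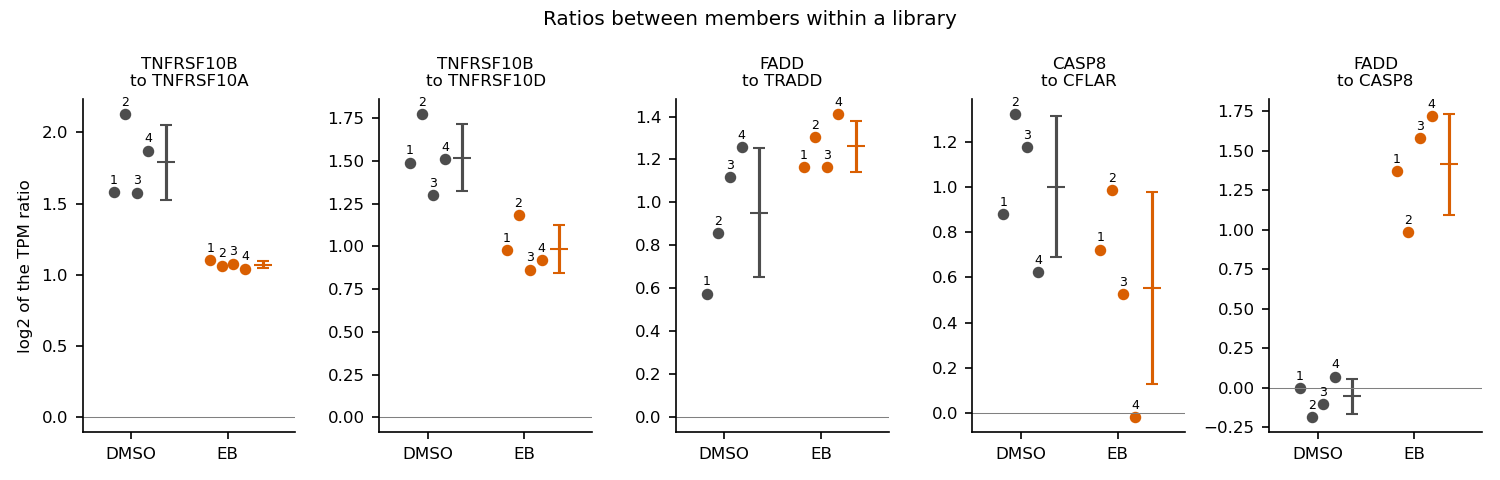
Log2 of the TPM ratio of 2 members within each library (vertical axis; each panel has its own range), with DMSO in grey, EB in orange, replicate numbers above the points and the mean with its SD over 4 libraries beside them. The groups separate for TNFRSF10B to TNFRSF10A, TNFRSF10B to TNFRSF10D and FADD to CASP8, the last of which was chosen after its values were seen, and overlap for FADD to TRADD and CASP8 to CFLAR.

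RIPK1, the kinase that scaffolds NF-κB signalling at TNFRSF1A and can start cell death, lies on chromosome 6 from 3063824 to 3115187. It had 16.3, 18.0, 19.6 and 13.1 TPM with DMSO and 13.4, 12.6, 11.1 and 10.7 TPM with EB. Only DMSO replicate 4 and EB replicate 1 are in the wrong order for the groups to separate. The mean fell from 16.8 ± 2.79 (SD, n = 4) to 11.9 ± 1.26 TPM (SD, n = 4). On the log2 scale the fold change was −0.45 (standard error 0.15, 95% interval −0.78 to −0.12, limma adjusted p = 0.0348; exact permutation p = 0.0571). The call was lost without DMSO replicate 1 (−0.46), DMSO replicate 2 (−0.41), DMSO replicate 3 (−0.37), EB replicate 2 (−0.48), EB replicate 3 (−0.42) or EB replicate 4 (−0.40), with limma adjusted p from 0.0531 to 0.102, and with the length and GC trend removed (−0.19, limma adjusted p = 0.0642). With quantile normalization the value was −0.26.

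The balance of higher and lower calls moved with the scaling. Median-ratio scaling, which moved the median log2 fold change of all genes from −0.11 to 0.01, called 4 members higher (TNFRSF10A, TNFRSF10D, FADD and TRADD) and 2 lower (CASP8 and RIPK1), beside 26.8% and 25.7% of all genes. Quantile normalization called 4 higher and 3 lower, with TNFRSF1A added to the latter, beside 23.8% and 23.5%. Removing the mitochondrial genes and rescaling, which moved the median to −0.28, called 2 higher (TNFRSF10A and FADD) and 3 lower (CASP8, CFLAR and RIPK1), beside 12.1% and 41.4%. FADD was called higher, and CASP8 and RIPK1 lower, under each of these 3 scalings.

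**Figure D3:**
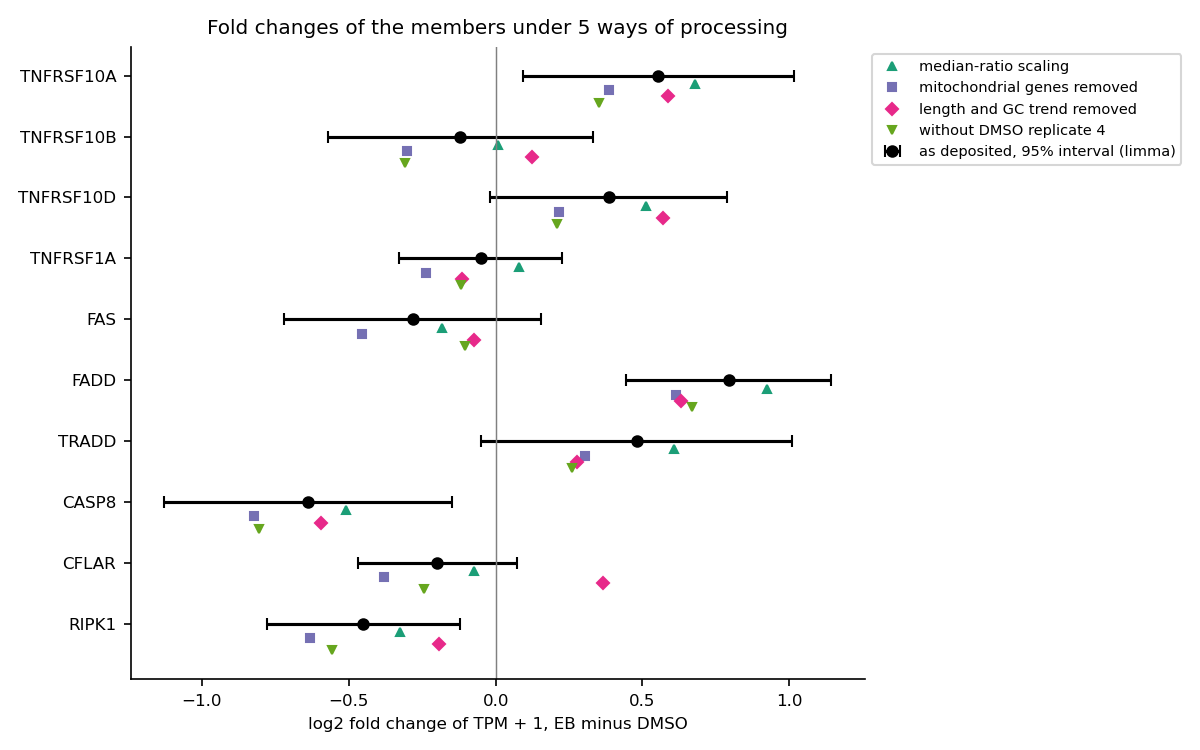
Log2 fold change of TPM + 1, EB minus DMSO (horizontal axis), for each member; black points with bars are the values as deposited with the limma 95% interval, coloured symbols 4 other ways of processing. FADD lies to the right of 0 and CASP8 and RIPK1 to the left under all 5, whereas the symbols of TNFRSF10B, TNFRSF1A and CFLAR fall on both sides.

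Fold changes fell with transcript length across the nuclear genes, from a median of 0.36 in transcripts of up to 1500 nucleotides to −0.46 in those longer than 5000. FADD, at 1708 nucleotides, lies in a class with a median of 0.12 and an upper quartile of 0.42, below its own 0.79. CASP8, at 2659 nucleotides, lies in a class with a median of −0.10 and a lower quartile of −0.41, above its own −0.64. TNFRSF10A (2690 nucleotides) and TNFRSF10D (3535 nucleotides) were likewise above the upper quartiles of their classes, 0.22 and 0.07. RIPK1, TNFRSF10B, FAS, CFLAR, TRADD and TNFRSF1A lay between the quartiles of genes of their length. The median length of the members was 3112.5 nucleotides, that of all tested genes 3216.5. The part of length in the fold changes was not tested beyond removal of the trend from each library.

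**Figure D4:**
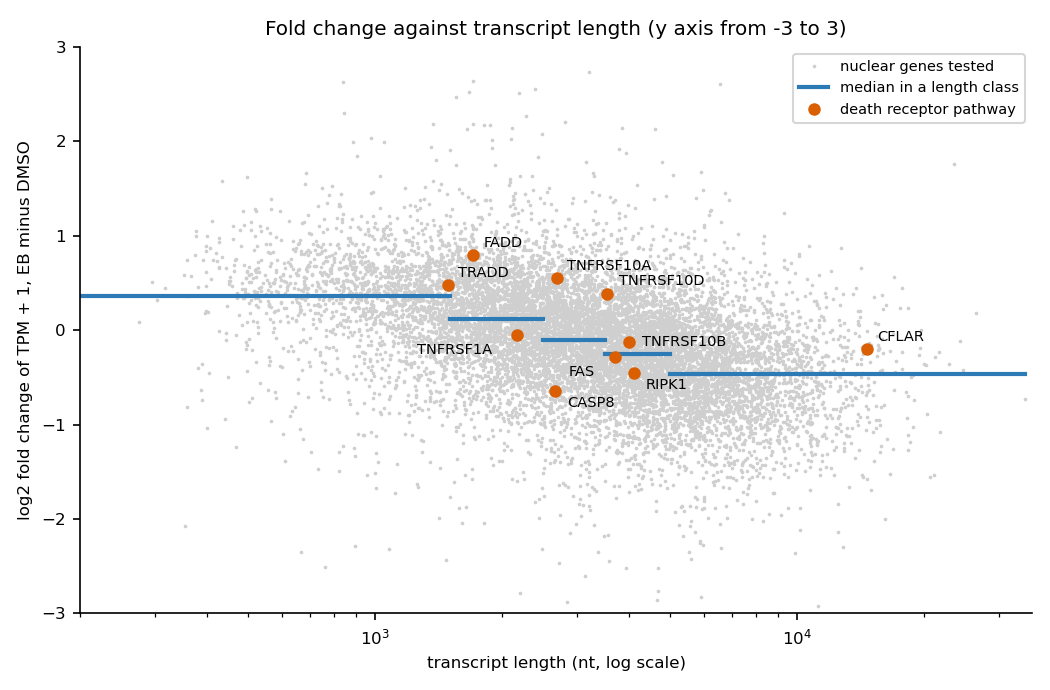
Log2 fold change of TPM + 1, EB minus DMSO, against the length of the canonical transcript on a log axis, for 11685 nuclear genes (grey), with the median of 5 length classes as blue bars and the 10 members in orange; the vertical axis ends at 3 on either side. The medians step down from 0.36 to −0.46, FADD and TNFRSF10A lie above and CASP8 below the median of their class, and CFLAR is the longest member.

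Promoters of FADD and CASP8 are shown because one of these genes rose and the other fell while both hold an AP-1 motif, and those of TNFAIP3 and LTB, described below, because both fell and hold an NF-κB core. These 4 were chosen with their fold changes known. RefSeq promoter windows (GRCh38.p14) were matched for 6 members, TNFRSF1A, FAS, FADD, CASP8, CFLAR and RIPK1. The AP-1 motif, TGANTCA on either strand, was found in windows of 4 of these 6, FAS, FADD, CASP8 and CFLAR. Of all 27305 genes with windows of 300 bases, 9.37% hold it in at least 1 window. A gene can have several windows, and 7.71% of the 35116 windows hold it. The NF-κB core, GGANTTTCC on either strand, was in none of the 6 (2.01% of all genes), nor was the C/EBP-ATF motif TGATGNAA (4.46% of all genes). A match is a stretch of letters and not a site, and no match says nothing of the factor. The FADD window, chr11:70203046-70203325 on the plus strand, holds 250 bases before the start and 30 after, with the AP-1 match in capitals from base 22 after the start. The CASP8 window shown, chr2:201260286-201260565 on the plus strand, has it 61 bases before the start. Another CASP8 window, chr2:201257785-201258064, which is not shown, has a match from 1 base before its start.
FADD: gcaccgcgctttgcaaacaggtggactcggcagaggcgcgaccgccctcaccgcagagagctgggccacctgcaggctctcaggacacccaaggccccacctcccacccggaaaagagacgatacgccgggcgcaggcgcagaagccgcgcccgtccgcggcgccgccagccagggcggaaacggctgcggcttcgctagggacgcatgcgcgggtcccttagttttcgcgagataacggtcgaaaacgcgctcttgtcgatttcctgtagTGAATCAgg
CASP8: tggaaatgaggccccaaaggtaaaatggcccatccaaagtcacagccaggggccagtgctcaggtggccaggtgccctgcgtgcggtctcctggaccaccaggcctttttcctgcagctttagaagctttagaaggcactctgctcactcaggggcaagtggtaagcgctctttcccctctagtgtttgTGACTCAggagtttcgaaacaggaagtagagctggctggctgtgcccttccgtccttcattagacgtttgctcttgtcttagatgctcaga
The TNFAIP3 window, chr6:137867009-137867288 on the plus strand, has the NF-κB core in capitals 67 bases before the start. In the LTB window, chr6:31582396-31582675 on the minus strand, it stands 86 bases before the start.
TNFAIP3: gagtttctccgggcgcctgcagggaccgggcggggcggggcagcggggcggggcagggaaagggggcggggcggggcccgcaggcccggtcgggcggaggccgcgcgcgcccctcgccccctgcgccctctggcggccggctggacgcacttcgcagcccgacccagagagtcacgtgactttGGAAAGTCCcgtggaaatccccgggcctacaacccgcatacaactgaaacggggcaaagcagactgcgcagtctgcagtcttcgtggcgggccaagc
LTB: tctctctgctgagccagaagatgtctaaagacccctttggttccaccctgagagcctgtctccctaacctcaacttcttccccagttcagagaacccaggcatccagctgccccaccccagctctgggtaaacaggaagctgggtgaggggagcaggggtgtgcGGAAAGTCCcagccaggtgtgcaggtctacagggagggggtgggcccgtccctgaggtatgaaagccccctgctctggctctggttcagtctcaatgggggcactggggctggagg
Of the 65 other pathway genes with a window, 6 hold the NF-κB core and 6 the AP-1 motif, beside 2.01% and 9.37% of all genes. Of the 6 with the NF-κB core, CYLD (limma adjusted p = 0.118) and PARP1 (limma adjusted p = 0.0898) were not called. The others were called lower. A link between the motifs and the fold changes was not tested.

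A further 82 genes of the pathway were taken from a list compiled by role. Of these, 69 were tested, 13 higher and 17 lower with EB (18.8% and 24.6% of those tested, beside 15.2% and 25.1% of all genes). The thresholds of the study were passed by 7 of the 69, beside 244 of all 11725 tested genes (2.08%). LTB, 1 of the 7, passed the filter through its DMSO libraries alone, as given below. The list was chosen with earlier results of these data known, so these shares are a description only. The median log2 fold change of the 69 was 0.00, that of all tested genes −0.11.

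Of 8 ligands, only LTB and TNF reached 1 TPM in any library, and both did so with DMSO alone. FASLG and TNFSF15, which encode FAS ligand and TL1A, were listed at 0 in all libraries. TNFSF10, which encodes TRAIL, reached at most 0.391 TPM. LTA, TNFSF12 and TNFSF14 stayed at or below 0.354, 0.289 and 0.074 TPM. TNF, the ligand of TNFRSF1A, had 1.40, 1.69, 1.56 and 0.716 TPM with DMSO and 0.136, 0, 0 and 0.0924 TPM with EB. All EB values of TNF were below all DMSO values (exact permutation p = 0.0286), at levels that did not pass the filter for the limma test as deposited. TNF was called lower with no filter (−1.13, limma adjusted p = 0.00175) and with the mitochondrial genes removed (−1.35, limma adjusted p = 7.48e-05). In the latter it passed the filter through its DMSO libraries alone and could only be found to fall. LTB, a ligand that pairs with LTA and lies beside TNF on chromosome 6, had 6.90, 4.01, 3.25 and 3.50 TPM with DMSO and 0.0639, 0.200, 0 and 0.0463 TPM with EB. LTB was the only ligand of 8 that was tested by limma as deposited, at a log2 fold change of −2.29 (limma adjusted p = 6.76e-05). Since it passed the filter through its DMSO libraries alone it could only be found to fall. At a pseudocount of 0.1 its fold change was −4.72.

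Of 11 further receptors of the family, 9 passed the filter, and 4 were called higher and 2 lower. The shares are 44.4% and 22.2%, beside 15.2% and 25.1% of all tested genes. TNFRSF12A, the receptor of TWEAK, which lacks a death domain, had 65.2, 66.7, 71.5 and 37.8 TPM with DMSO and 254, 256, 260.4 and 206 TPM with EB. The groups are far apart, and the log2 fold change was 2.03 (standard error 0.20, limma adjusted p = 0.000156). TNFRSF10C, the decoy TRAIL receptor without a cytoplasmic tail, had 4.35, 4.597, 3.202 and 2.60 TPM with DMSO and 7.41, 6.31, 5.99 and 5.01 TPM with EB. Its groups did not overlap, and its log2 fold change was 0.63 (limma adjusted p = 0.0175), with the call lost without DMSO replicate 3 (0.58, limma adjusted p = 0.0525) or EB replicate 1 (0.55, limma adjusted p = 0.0522). With the length and GC trend removed its value was 0.40. TNFRSF25, the death receptor DR3, rose by 0.61 (limma adjusted p = 0.0107), from 39.4 ± 7.14 to 60.1 ± 3.90 TPM (SD, n = 4). NGFR, the neurotrophin receptor p75, rose by 0.85 (limma adjusted p = 0.00678) from about 1 TPM, with DMSO libraries at 0.547 to 1.76 TPM and EB libraries at 1.98 to 3.22 TPM. Since only 1 DMSO library reached 1 TPM, NGFR passed the filter through its EB libraries and could hardly be found to fall. TNFRSF1B, the other receptor of TNF, fell by 0.61 on the log2 scale (limma adjusted p = 0.00989) from 5.21 ± 0.726 to 3.07 ± 0.558 TPM (SD, n = 4), and lost its call with quantile normalization (−0.29, limma adjusted p = 0.0589). With the length and GC trend removed its value was −0.40. TNFRSF21, the death receptor DR6, fell by 0.61 too (limma adjusted p = 0.0349), but its groups overlapped and the call was lost without DMSO replicate 1, 2 or 3 or EB replicate 3 or 4 (limma adjusted p from 0.0749 to 0.0976), with quantile normalization (−0.30, limma adjusted p = 0.0685) and with no filter (limma adjusted p = 0.0571).

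Of 21 ubiquitin ligases, deubiquitinases and kinases of the receptor complex, 20 were tested, 1 higher and 6 lower, with a median log2 fold change of −0.21. That is 5% higher and 30% lower, beside 15.2% and 25.1% of all tested genes. TNFAIP3, the ubiquitin-editing enzyme A20, which limits NF-κB signalling, had 17.3, 22.0, 20.5 and 12.3 TPM with DMSO and 3.03, 2.20, 0.973 and 1.24 TPM with EB. BIRC3, the ubiquitin ligase cIAP2, which modifies RIPK1, had 14.8, 14.6, 16.5 and 12.7 TPM with DMSO and 3.61, 3.48, 3.86 and 4.75 TPM with EB. Both fell in every EB library below every DMSO library, with log2 fold changes of −2.76 for TNFAIP3 (limma adjusted p = 9.99e-05) and −1.67 for BIRC3 (limma adjusted p = 5.12e-05). TAB2 and TAB3, which tether the kinase TAK1 to ubiquitin chains, fell by 0.74 (limma adjusted p = 0.00215) and 0.78 (limma adjusted p = 0.00345). With the length and GC trend removed their values were −0.44 and −0.32, still called.

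All 8 modulators of the death-inducing signalling complex (DISC) passed the filter, and 3 were called higher and 2 lower. Beside these 37.5% and 25%, 15.2% and 25.1% of all tested genes were called. DAP3, a death-associated protein that is also a subunit of the mitochondrial ribosome, rose from 102.8 ± 5.26 to 155.6 ± 13.3 TPM (SD, n = 4; log2 fold change 0.59, limma adjusted p = 0.00387). FAF1, which binds FAS, rose from 18.7 ± 1.42 to 27.2 ± 1.43 TPM (SD, n = 4; 0.52, limma adjusted p = 0.00619), with 0.99 once the length and GC trend was removed and 0.34 without the mitochondrial genes. SORT1, the sorting receptor sortilin, fell by 1.46 on the log2 scale (limma adjusted p = 0.00445), with EB libraries at 2.67 to 6.60 TPM and DMSO libraries at 6.68 to 15.6 TPM. DAXX, another FAS-binding protein, rose by 0.34 (limma adjusted p = 0.0456), and CUL3, the scaffold of a ligase that ubiquitinates caspase 8, fell by 0.38 (limma adjusted p = 0.0434). Both of the latter calls were near the threshold. DAXX lost it when any library but DMSO replicate 4 was left out (limma adjusted p from 0.0509 to 0.104), with the mitochondrial genes removed (0.15, limma adjusted p = 0.292), with quantile normalization (limma adjusted p = 0.0998) and at a pseudocount of 0.1 (limma adjusted p = 0.0526). CUL3 lost it when any library but DMSO replicate 4 or EB replicate 2 was left out (limma adjusted p from 0.0769 to 0.123), and the sign of CUL3 turned to 0.07 with the length and GC trend removed.

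Of 8 necroptosis genes 5 were tested, 2 higher and none lower (40% and 0%, beside 15.2% and 25.1% of all tested genes). RIPK3, the kinase that phosphorylates MLKL, was listed at 0 in 7 libraries and at 0.624 TPM in DMSO replicate 2, and ZBP1, a sensor that acts through RIPK3, at 0 in all 8. MLKL, the membrane-permeabilizing effector, had 23.2, 24.98, 19.6 and 20.1 TPM with DMSO and 23.8, 28.9, 26.6 and 28.1 TPM with EB. Its groups overlapped, and its log2 fold change was 0.28 (limma adjusted p = 0.103). The genes that rose were the chaperone HSP90AA1, at 1111 ± 87.2 against 1834 ± 108 TPM (SD, n = 4; log2 fold change 0.72, limma adjusted p = 0.0015), and its kinase co-chaperone CDC37 (0.39, limma adjusted p = 0.0463). Both serve many clients besides RIPK1 and RIPK3. CDC37 lost its call when any library but DMSO replicate 4 was left out (limma adjusted p from 0.0554 to 0.1), with quantile normalization (0.16, limma adjusted p = 0.13), with the mitochondrial genes removed (0.21, limma adjusted p = 0.08) and at a pseudocount of 0.1 (limma adjusted p = 0.0549). With quantile normalization HSP90AA1 rose by 0.36 and stayed called.

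Downstream of caspase 8, all 15 genes of the mitochondrial and executioner steps were tested, and 1 rose and 1 fell. Each is 6.67% of the list, beside 15.2% higher and 25.1% lower among all tested genes. HTRA2, a mitochondrial protease that binds inhibitors of apoptosis once released, had 26.9, 29.4, 26.6 and 18.2 TPM with DMSO and 65.4, 59.2, 55.8 and 50.5 TPM with EB, well apart (log2 fold change 1.17, limma adjusted p = 0.000778). HTRA2 overlaps AUP1 on the opposite strand by 165 bases, and AUP1 had a mean of 167 TPM with DMSO and 236 TPM with EB. Whether reads were assigned by strand is not stated. APAF1, the core of the apoptosome, fell by 0.77 (limma adjusted p = 0.0282) from 5.43 ± 2.34 to 2.63 ± 0.549 TPM (SD, n = 4). The APAF1 call was lost without DMSO replicate 1 or 3 or EB replicate 2 or 3 (limma adjusted p from 0.0587 to 0.0807), with the length and GC trend removed (−0.28, limma adjusted p = 0.293), with quantile normalization (−0.45, limma adjusted p = 0.112) and with no filter (limma adjusted p = 0.0551).

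Of 11 transcription factors known to regulate TNFRSF10B or FAS, 2 rose and 5 fell (18.2% and 45.5%, beside 15.2% and 25.1% of all tested genes). DDIT3 (CHOP), a stress factor known to induce TNFRSF10B, had 9.61, 12.01, 11.9 and 11.1 TPM with DMSO and 67.4, 27.2, 49.2 and 36.4 TPM with EB. Every EB library was above every DMSO library, and the log2 fold change, 1.85, had a limma adjusted p of 0.000591. ATF4, which acts upstream of DDIT3, rose by 1.10 (limma adjusted p = 0.000844), from 218.3 ± 38.6 to 465.0 ± 50.8 TPM (SD, n = 4). In the same libraries TNFRSF10B did not pass the test, as given above. TP63 fell by 3.21, IRF1 by 2.17 and SP1 by 1.12 on the log2 scale, with limma adjusted p from 7.18e-05 to 0.00389 and no overlap between the groups in any of these 3. With the length and GC trend removed SP1 was at −0.62, still called. DDIT3 and IRF1 each overlap other genes on the opposite strand. DDIT3 overlaps MARS1 by 982 bases and MBD6 by 1028 bases. MARS1 had a mean of 58.2 TPM with DMSO and 91.4 TPM with EB, above DDIT3 in both groups, and MBD6 had 35.8 and 23.3 TPM. IRF1 overlaps IRF1-AS1, at 7.79 TPM with DMSO and 1.83 TPM with EB, and ENSG00000283782, at 1.89 and 0.0948 TPM. Whether reads were assigned by strand is not stated, and the part of these overlaps was not tested.

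**Figure D5:**
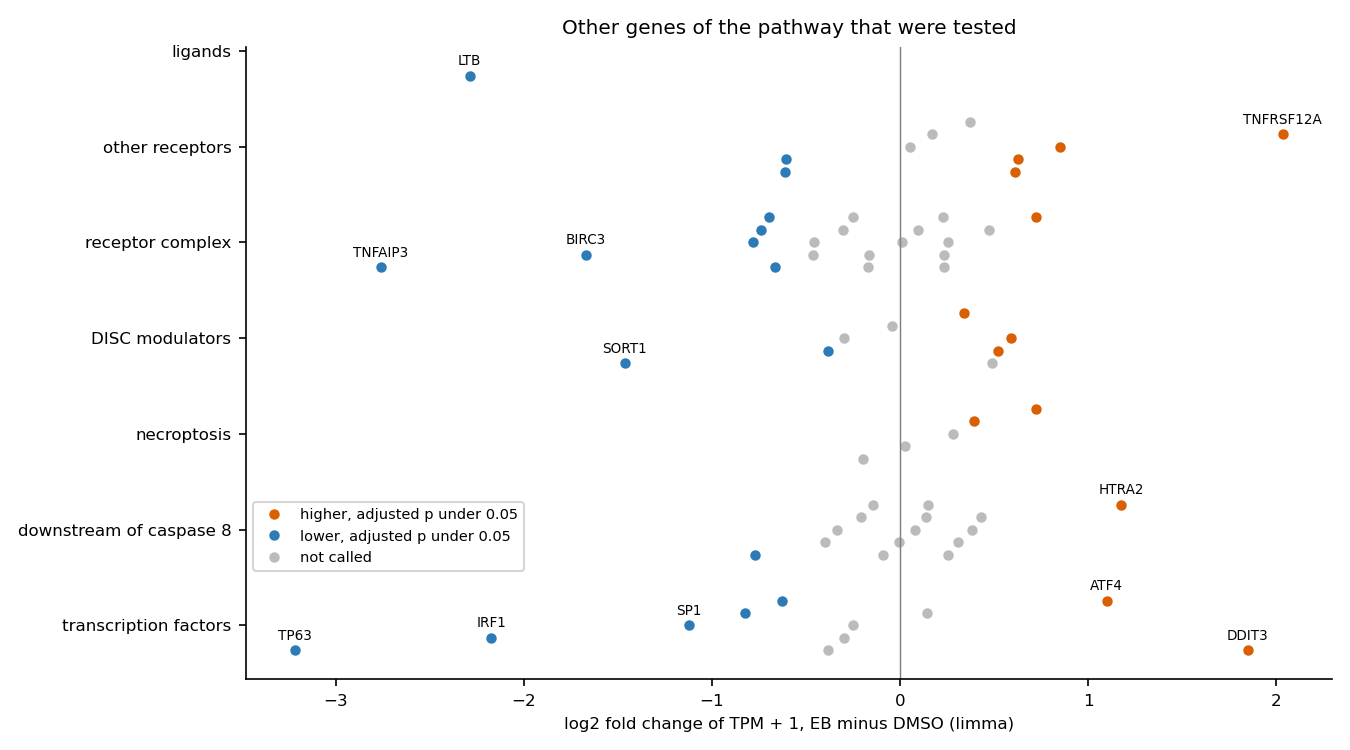
Log2 fold change of TPM + 1, EB minus DMSO (horizontal axis), of the 69 tested genes of the pathway that are not among the 10 members, in 7 groups by role (vertical axis), with genes at a limma adjusted p under 0.05 in orange (higher) or blue (lower). The names mark genes beyond about 1 on either side, with TNFRSF12A and DDIT3 farthest to the right and TP63, TNFAIP3 and LTB farthest to the left.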

How the data were processed

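RNA sequencing was analysed in 4 DMSO and 4 EB libraries of PANC-1 cells. The authors deposited 1 table of TPM, normalized within each library, for 20263 genes under human Ensembl identifiers. The methods name CLC Genomics Workbench for trimming, mapping, counting and normalization, and both GrCM38 and hg38 as genome; the role of further tools (HISAT2 and StringTie among them), strandedness and the annotation are not stated. No read counts were used here, so depth and counting error are unknown. Columns headed C were taken as DMSO and H as EB, as no other group exists, and 0 columns of other samples were present. The methods give 4 biological replicates per group, as the labels do, and also speak of triplicates for the sequencing.

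Symbols, positions and canonical transcript lengths came from GENCODE release 44 on hg38. The deposited TPM were converted to log2 after adding a pseudocount of 1, filtered at 1 TPM in at least 4 libraries, and fitted with limma 3.58.1 (lmFit, eBayes, no covariate) in R 4.3.3 with Benjamini-Hochberg adjustment over all genes tested. Intervals are 95% intervals of that fit. Exact permutation tests used scipy 1.17.1. The members and gene lists were chosen with earlier results of these data known. All members and ligands are named, and of each other list the genes at an adjusted p under 0.05, at most the 4 with the largest absolute fold change in each direction. Some genes of these lists are counted but not reported by name here. Each result was recomputed with a smaller pseudocount (0.1), no filter, a minimum of 5 TPM, median-ratio scaling, quantile normalization, removal of mitochondrial genes, removal of the length and GC trend, an intensity trend, a replicate block and each library left out. The ratio of FADD to CASP8 was added after seeing the data. The steps were checked on simulated data.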

Additional observations from a re-analysis of the deposited data

Results flagged for a closer look

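In 4 genes, single values lay far from the other libraries of their group by Dixon's criterion for 4 samples. FAS had 8.49 TPM in DMSO replicate 4, where the other DMSO libraries had 4.69 to 4.91 TPM. TNFRSF12A had 206 TPM in EB replicate 4, against 254 to 260.4 TPM in the other EB libraries, and stayed above every DMSO library. SORT1 had 6.60 TPM in EB replicate 3, against 2.67 to 2.85 TPM in the other EB libraries. CDC37 had 299.5 TPM in DMSO replicate 4, against 405 to 421 TPM in the other DMSO libraries. In all, 82 groups of values were checked and chance gives such a value in about 1 of 20, so 4 do not exceed that number. In FAS, TNFRSF12A and CDC37 the library concerned is replicate 4, which has the highest mitochondrial share of its group, and the part of that share in these values was not tested.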

How the results depend on the processing

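Of the members, FADD was called higher in all 17 alternatives. The number called higher was 1 as deposited (15.2% of all genes). It was 4 with median-ratio scaling (26.8%), quantile normalization (23.8%) or the replicate block (19%), with FADD, TNFRSF10A, TNFRSF10D and TRADD in each. With the length and GC trend removed it was 3 (24.4%), with the mitochondrial genes removed 2 (12.1%), and with single libraries left out 1 to 2 (10.6% to 15.7%). The number called lower was 2 as deposited (25.1% of all genes), and 3 with quantile normalization (23.5%) or the mitochondrial genes removed (41.4%). It was 1 with no filter (RIPK1, beside 18.8%) or with the length and GC trend removed (CASP8, beside 21.8%), and 0 to 2 with single libraries left out (16.9% to 36.4%). An exact permutation p under 0.05 was reached by 1 member as deposited, 6 with median-ratio scaling or quantile normalization, 5 without the mitochondrial genes and 3 without the length and GC trend, beside 36.8%, 47.5%, 43.9%, 48.7% and 43.2% of all tested genes. No member passed the study's thresholds in any alternative.

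Of the other pathway genes, 13 were higher as deposited, 25 with median-ratio scaling (26.8% of all genes) and 21 with the length and GC trend removed (24.4%). With single libraries left out 10 to 14 were higher (10.6% to 15.7% of all genes). As deposited 17 were lower, with the mitochondrial genes removed 31 (41.4% of all genes), and with single libraries left out 10 to 22 (16.9% to 36.4%). Signs turned for TNFRSF10B with median-ratio scaling (0.00864), with the length and GC trend removed (0.124) and without DMSO replicate 2 (from −0.307 to 0.000386 over the libraries left out), for TNFRSF1A with median-ratio scaling (0.0805), FAS with quantile normalization (0.0234), and CFLAR (0.367) and CUL3 (0.0712) with the length and GC trend removed. With that trend removed these ratios passed 0.05, TNFRSF10B to TNFRSF10A at −0.46, TNFRSF10B to TNFRSF10D at −0.45 and FADD to TRADD at 0.36. CASP8 to CFLAR, at −0.96, did not. The cause was not tested for any of these.

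Whether libraries of the same number belong together is not stated, and the values cannot decide it. The deviations of same-numbered libraries correlated at r = 0.183, 0.046, −0.088 and 0.284 across genes, and 2 of 4 libraries correlated best with their own number. The block raised the calls among all genes from 40.3% to 49.1%, and within pairs the ratios could not go below an exact p of 0.125. With 4 libraries a group and no counts, small differences may have been missed. As deposited, genes that did not reach 1 TPM in at least 4 libraries were not tested by limma.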
